A study of Homo sapiens with 12 samples.

Results

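Human chromosome 19 carries the densest collection of zinc finger genes in the genome, and their transcripts were followed in Huh7, an established hepatocellular carcinoma cell line, after disulfiram, thalidomide or both drugs. The genes described are the protein-coding rows on chromosome 19 (GENCODE 29, hg38) with a symbol of ZNF followed by digits and a level of at least 1 TPM in at least 3 of the 12 libraries. TPM is a length-scaled share of all transcripts of a library. The members were chosen by these TPM values, and the rule uses no contrast, although it was set with earlier results of these data known. The rule kept 180 of 240 such genes, which are 180 of the 15352 genes of any kind that passed the same filter. The levels of all 12 libraries counted, so a gene could pass through 1 group alone. Of the 180, 43 would not pass on the control and thalidomide libraries by themselves, and 13 of those 43 are among the 62 called higher with the combination below. Counts and medians over the 180 are therefore descriptions and not evidence for a direction.

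There were 4 groups of 3 libraries: cells given disulfiram and thalidomide together, disulfiram alone, thalidomide alone, and control cells, whose columns are named DMSO. Disulfiram inhibits aldehyde dehydrogenases, and its metabolite binds copper. Thalidomide binds cereblon, a ubiquitin ligase subunit, and brings certain zinc finger proteins to it for degradation. All groups are the same cell line. The sources used here give no dose unit, treatment time or read depth. Nothing says that replicates were separate cultures, so the spread behind each p-value may be technical. The labels' preparation text describes dissociated tissue and droplet capture, unlike a cell line with 1 column per library, so how the libraries were made is not known.

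Most chromosome 19 ZNF proteins belong to the KRAB zinc finger family. A KRAB domain near the start of the protein binds TRIM28, which brings SETDB1, heterochromatin proteins and histone deacetylases, and a row of C2H2 fingers reads the DNA. Many family members bind transposable elements and keep them silent. The genes arose by repeated local duplication, which left them in clusters of similar sequence, and ZNF274, itself a member, is known to mark the ends of other ZNF genes for SETDB1.

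In the translated GENCODE 29 coding sequences, 147 of the 180 genes held a KRAB pattern and 33 did not. The median number of finger patterns was 12 in genes with a KRAB pattern and 9 in those without, and ZNF91 had the most, 32. In 1 gene, ZNF738, no finger pattern was found in the translated transcript. The 2 kinds also differ in base composition, which matters for the comparisons below. The median GC content at the third codon position was 38.3% with a KRAB pattern and 70.6% without. Below are the bases that encode 1 finger and its linker in 3 genes that were higher with the combination and 3 that were lower. Capitals mark the codons of the 2 cysteines and 2 histidines that hold the zinc ion.
ZNF224: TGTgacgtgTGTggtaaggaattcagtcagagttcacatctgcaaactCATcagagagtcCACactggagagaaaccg
ZNF69: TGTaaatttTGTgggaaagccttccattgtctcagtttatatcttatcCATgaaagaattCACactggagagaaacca
ZNF331: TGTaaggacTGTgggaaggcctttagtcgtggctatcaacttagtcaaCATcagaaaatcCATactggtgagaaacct
ZNF787: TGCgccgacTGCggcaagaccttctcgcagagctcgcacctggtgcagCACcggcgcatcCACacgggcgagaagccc
ZNF444: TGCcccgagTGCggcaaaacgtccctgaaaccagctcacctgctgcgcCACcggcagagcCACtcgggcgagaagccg
ZNF580: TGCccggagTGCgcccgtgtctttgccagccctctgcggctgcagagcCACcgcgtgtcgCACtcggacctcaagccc

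All 6 stretches are 78 bases long and encode the same fold. The ZNF224 finger lies at chr19:44106776-44106853 on the plus strand of hg38 and has 47.4% GC, the ZNF69 finger at chr19:11905061-11905138 (plus) has 35.9%, and the ZNF331 finger at chr19:53576957-53577034 (plus) has 43.6%. The ZNF787 finger at chr19:56088809-56088886 (minus) has 69.2% GC, the ZNF444 finger at chr19:56159758-56159835 (plus) has 67.9%, and the ZNF580 finger at chr19:55642788-55642865 (plus) has 70.5%. In the 3 genes that were higher the cysteine codons are TGT, and in the 3 that were lower they are TGC.

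Over whole transcripts (the longest per gene), the median GC content was 42.5% for the 180 genes and 49.3% for all genes tested, and 151 of the 180 lay below the latter value. It was 42.2% with a KRAB pattern and 59.6% without, within a range of 34.2% to 71.1%. The genes are low in level: the median of the mean TPM was 2.36, against 9.01 for all genes tested, with 77 of the 180 below 2 TPM, 45 at 5 TPM or more and 17 at 10 TPM or more. The median was 2.03 TPM with a KRAB pattern and 7.32 TPM without. ZNF428, which has a single finger pattern and no KRAB pattern, was highest at a mean of 67.7 TPM, followed by ZNF444, ZNF787, ZNF358, ZNF414 and ZNF581, none of which has a KRAB pattern. Among genes with one, ZNF274 (19.1 TPM) was highest. Just inside the threshold, ZNF85 and ZNF112 reached 1 TPM in 3 libraries, with means of 0.752 and 0.982 TPM. Just outside, ZNF429 and ZNF229 reached it in 2 libraries, with means of 0.867 and 0.687 TPM.

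The number of genes at 1 TPM or more was 14681 to 15038 in the combination libraries, 14206 to 14790 with disulfiram, 13711 to 14207 with thalidomide and 13693 to 14097 in control. The median log2(TPM + 1) of all genes tested was 3.36 to 3.53 with the combination, 3.17 to 3.39 with disulfiram, 3.05 to 3.23 with thalidomide and 3.17 to 3.26 in control, so both were higher in every combination library than in every control library. All 10 hepatocyte markers examined were at 1 TPM or more in at least 1 group, as were 3 of 10 immune markers (LYZ, CD3D and CD14), 1 of 5 endothelial markers (PECAM1) and 4 of 7 fibroblast and stellate markers. The summed TPM of the endothelial markers was 3.83 to 5.46 with the combination, 3.52 to 7.42 with disulfiram, 1.66 to 2.51 with thalidomide and 0.79 to 1.55 in control, and that of the hepatocyte markers was 3700 to 4830 with the combination, 4100 to 4160 with disulfiram, 5520 to 7670 with thalidomide and 4340 to 6880 in control. The immune markers summed to 101 to 107 TPM with the combination, 76 to 149 TPM with disulfiram, 122 to 172 TPM with thalidomide and 117 to 178 TPM in control. The part of these differences in the results was not tested. Libraries also differed by transcript GC content within groups. Spearman's rho between transcript GC content and the deviation of each gene's level from its mean in that group was -0.59, 0.67 and -0.37 in the 3 combination libraries and -0.49, 0.61 and -0.31 in the 3 disulfiram libraries. It was 0.48, -0.06 and -0.40 in the thalidomide libraries and 0.12, -0.17 and 0.04 in the control libraries. The second combination and second disulfiram libraries thus stood apart from their groups in the same direction, toward GC-rich transcripts.

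Summed over the 180 genes, the level was 1095, 952.3 and 1079 TPM in the combination libraries, 994, 906.7 and 972.1 TPM in the disulfiram libraries, 813, 835.7 and 848.7 TPM in the thalidomide libraries and 830.2, 823 and 807.9 TPM in the control libraries. Every combination and disulfiram library was above every thalidomide and control library. The mean was 1040 ± 78.2 TPM with the combination, 958 ± 45.4 TPM with disulfiram, 832 ± 18.1 TPM with thalidomide and 820 ± 11.4 TPM in control (SD, n = 3 each). In a bulk library, more RNA per cell and more cells that make it cannot be told apart. The 240 genes without any filter on level gave 1120, 968 and 1104 TPM with the combination and 840.9, 834.7 and 818.4 TPM in control. Genes with a KRAB pattern summed to 665.6, 505.4 and 634.2 TPM with the combination, 539.3, 412.1 and 509.8 TPM with disulfiram, 332.1, 379.9 and 392.8 TPM with thalidomide, and 364.5, 390.5 and 373.4 TPM in control. Genes without one summed to 429.3, 446.8 and 445.2 TPM with the combination, 454.7, 494.5 and 462.3 TPM with disulfiram, 480.9, 455.8 and 455.9 TPM with thalidomide, and 465.7, 432.6 and 434.5 TPM in control, so that the combination and control libraries overlapped. For the KRAB genes the second library was the lowest of its group with the combination and with disulfiram.

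**Figure D1:**
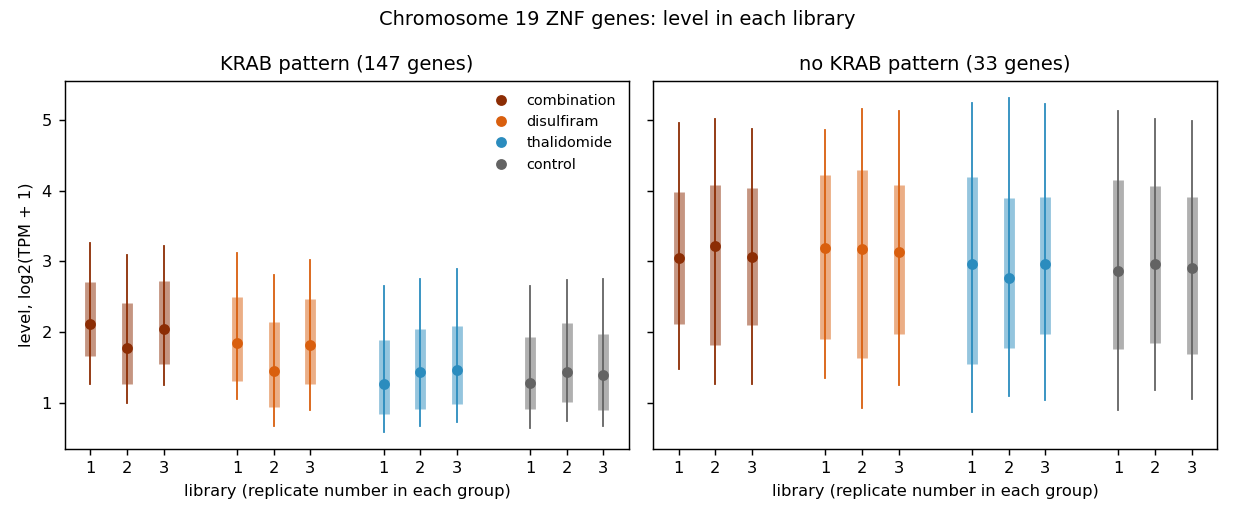
Level of the chromosome 19 ZNF genes in each library on the log2(TPM + 1) scale, for 147 genes with a KRAB pattern (left) and 33 without (right). Points are medians over genes, thick bars the middle 50% and thin lines the 10th to 90th percentile. The KRAB median is 2.12, 1.78 and 2.05 in the combination libraries and 1.29, 1.44 and 1.40 in the control libraries, while the medians without a KRAB pattern lie between 2.77 and 3.21 in every library.

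With the combination, a large share of the KRAB genes was higher than in control, and the few genes that were lower were GC-rich and lacked the domain. Differences were tested on log2(TPM + 1) with limma over all genes tested, at an adjusted p below 0.05 (Benjamini-Hochberg). Of the 180 genes, 62 rose and 3 fell, or 34.4% and 1.67%, where 18.4% of all genes tested rose and 6.7% fell. The median log2 fold change was 0.49, against 0.20 for all genes tested, and it was above 0 for 159 of the 180. In 99 genes every combination library was above every control library, and in 6 every one was below, where 33.9% and 12.1% of all genes tested did so. Among the 147 KRAB genes 58 rose and none fell, with a median of 0.50. The log2 fold changes of the 62 ran from 0.33 to 1.42, and 9 of them were at least 2-fold on this scale, which is 5% of the 180, where 2.18% of all genes tested were called at that size. Of the 62, 12 share over 10% of their 50-base windows with another gene and 28 overlap a gene on the other strand, so their reads could be divided differently between genes.

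The count of 65 depended on single libraries. Without the first or the third combination library, or without any 1 of the 3 control libraries, 20 to 43 genes were called, and 19 of the 65 were called whichever library was left out. These 19 all rose, and they include ZNF224, ZNF69, ZNF283, ZNF331, ZNF304, ZNF222, ZNF226, ZNF45 and ZNF211. Scaling each library by the median of ratios moved the median of all genes tested to 0.00. The members' median was then 0.33, and 37 rose and 5 fell, where 7.9% of all genes tested rose and 13.9% fell.

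ZNF224, a KRAB repressor first described at the promoter of the glycolytic gene ALDOA, had the largest log2 fold change of the 62 genes that rose. It was at 11.02, 9.46 and 11.73 TPM with the combination, 7.13, 3.47 and 7.31 TPM with disulfiram, 2.79, 5.26 and 4.33 TPM with thalidomide, and 3.27, 4.14 and 2.80 TPM in control. The 3 combination libraries were above all 9 others, and the disulfiram libraries overlapped both thalidomide and control. The log2 fold change of the combination against control was 1.42 ± 0.25 (SE, limma adjusted p = 0.00368, n = 3 each), and that of disulfiram was 0.62 ± 0.25 (limma adjusted p = 0.125). The gene lies at chr19:44094339-44109886 on the plus strand and overlaps a gene on the other strand.

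ZNF331, a KRAB gene often silenced by promoter methylation in gastrointestinal cancers, was at 4.36, 3.37 and 3.94 TPM with the combination, 2.62, 1.94 and 3.03 TPM with disulfiram, 1.07, 1.10 and 1.86 TPM with thalidomide, and 0.84, 1.64 and 1.40 TPM in control. Its groups ordered without overlap from the combination through disulfiram to thalidomide and control together, except that the last 2 overlapped each other. The log2 fold change was 1.10 ± 0.19 for the combination (limma adjusted p = 0.0039) and 0.63 ± 0.19 for disulfiram (limma adjusted p = 0.0537), which passed the threshold only after correction for GC content among the settings that kept all libraries. It overlaps no other annotated gene and shares no 50-base window with one.

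ZNF69 had 3.88, 3.50 and 3.12 TPM with the combination and 1.01, 0.99 and 0.61 TPM in control, a log2 difference of 1.27 ± 0.24 (limma adjusted p = 0.00516). ZNF283 had 4.38, 3.29 and 3.40 TPM with the combination and 0.56, 1.23 and 1.23 TPM in control, a log2 difference of 1.24 ± 0.26 (limma adjusted p = 0.00846). Both are KRAB genes of low level, and their combination libraries stood clear of control. ZNF69 had 1.77, 0.68 and 0.82 TPM with thalidomide. It is among the 43 genes that would not pass the filter on the control and thalidomide libraries by themselves. ZNF791 had 6.74, 5.29 and 7.77 TPM with the combination and 1.45, 2.42 and 1.88 TPM in control (1.38 ± 0.33, limma adjusted p = 0.0127), and its adjusted p was 0.0555 without the third combination library. ZNF559 had 5.92, 3.35 and 6.11 TPM with the combination and 0.83, 1.5 and 2.89 TPM in control (1.20 ± 0.35, limma adjusted p = 0.0284). Without the first or the third combination library, or the first or second control library, its adjusted p was 0.0673 to 0.104.

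The 3 genes that fell lie within 1 cluster near the end of the long arm and have no KRAB pattern. ZNF787 was at 37.84, 43.53 and 39.69 TPM with the combination and 51.37, 52.77 and 63.49 TPM in control, a log2 change of -0.46 ± 0.12 (limma adjusted p = 0.0204). ZNF444, which carries a SCAN domain in place of KRAB, was at 52.26, 59.68 and 54.37 TPM with the combination and 76.65, 67.40 and 68.78 TPM in control, a change of -0.35 ± 0.10 (limma adjusted p = 0.027). ZNF580, a small protein with 3 finger patterns, was at 3.47, 3.95 and 3.35 TPM with the combination and 6.27, 6.48 and 4.79 TPM in control, a change of -0.57 ± 0.17 (limma adjusted p = 0.0301). All 3 had every combination library below every control library. After correction for transcript GC content none passed, at an adjusted p of 0.211 for ZNF787, 0.287 for ZNF444 and 0.0749 for ZNF580. Leaving out the first or the third combination library also ended each call, as did 1 or 2 of the control libraries, with adjusted p of up to 0.0789 for ZNF787, 0.10 for ZNF444 and 0.101 for ZNF580. ZNF787 lies at chr19:56087366-56121280 (minus), ZNF444 at chr19:56132599-56160893 (plus) and ZNF580 at chr19:55635016-55643469 (plus). ZNF580 overlaps ZNF581 on the same strand (chr19:55635459-55645622), so reads could be divided differently between these genes. ZNF581 is higher in level, at a mean of 27 TPM, and did not pass with the combination (-0.04 ± 0.20, limma adjusted p = 0.905). ZNF787 and ZNF444 each overlap 1 other annotated gene.

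**Figure D2:**
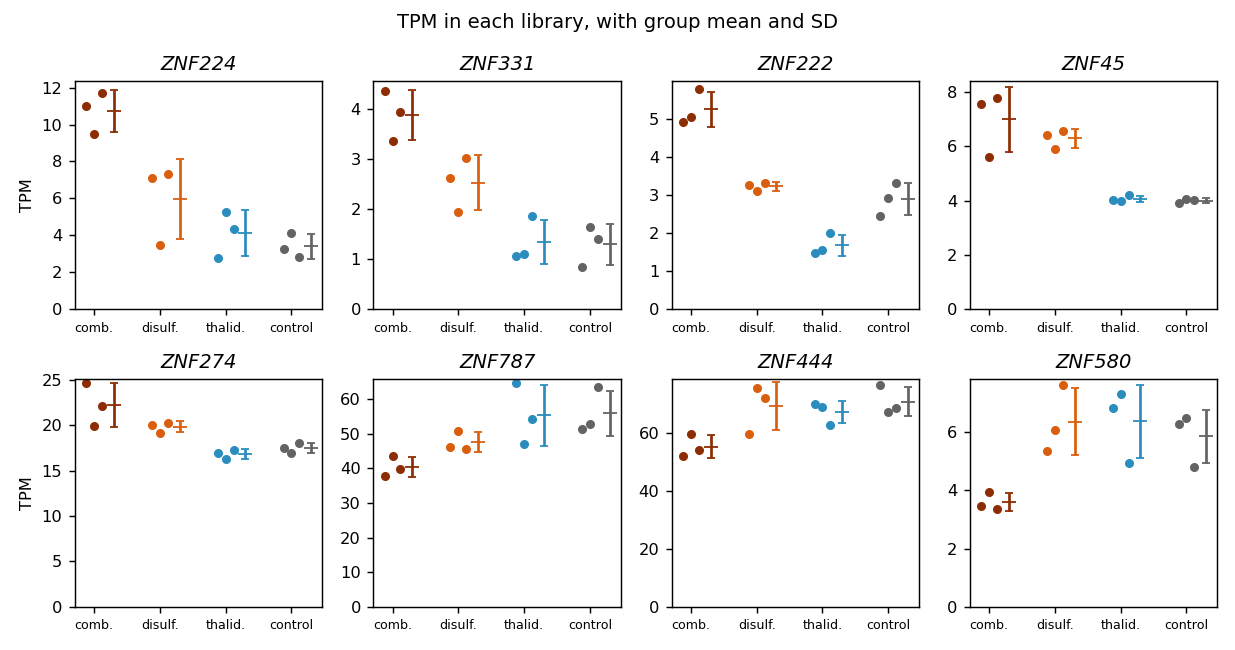
TPM of 8 chromosome 19 ZNF genes in each library (points) with the group mean and SD (bars, n = 3), for the combination, disulfiram, thalidomide and control from left to right. ZNF224, ZNF331, ZNF222, ZNF45 and ZNF274 are highest with the combination, and ZNF787, ZNF444 and ZNF580 are lowest with it.

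The difference between genes with and without a KRAB pattern moved with base composition. Without the pattern, 4 of 33 genes rose and 3 fell with the combination, and the median log2 fold change was 0.10, or -0.12 with median-of-ratios scaling. The 4 that rose, ZNF260, ZNF329, ZNF473 and ZNF490, are in the lower 50% of GC content among all genes tested. In that lower range the median was 0.61 for 13 genes without the pattern and 0.52 for 138 genes with it, and 4 and 57 of them rose. In the upper range the median was -0.08 for 20 genes without the pattern and 0.19 for 9 with it. After GC correction the median of those 20 turned to 0.13, with 2 rising and none falling, and that of the 9 was 0.26. Over all GC contents the corrected median was 0.16 without the pattern and 0.33 with it, and 15.2% and 27.9% of these genes rose. A difference between the 2 kinds thus remained after correction, and it was not tested.

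**Figure D3:**
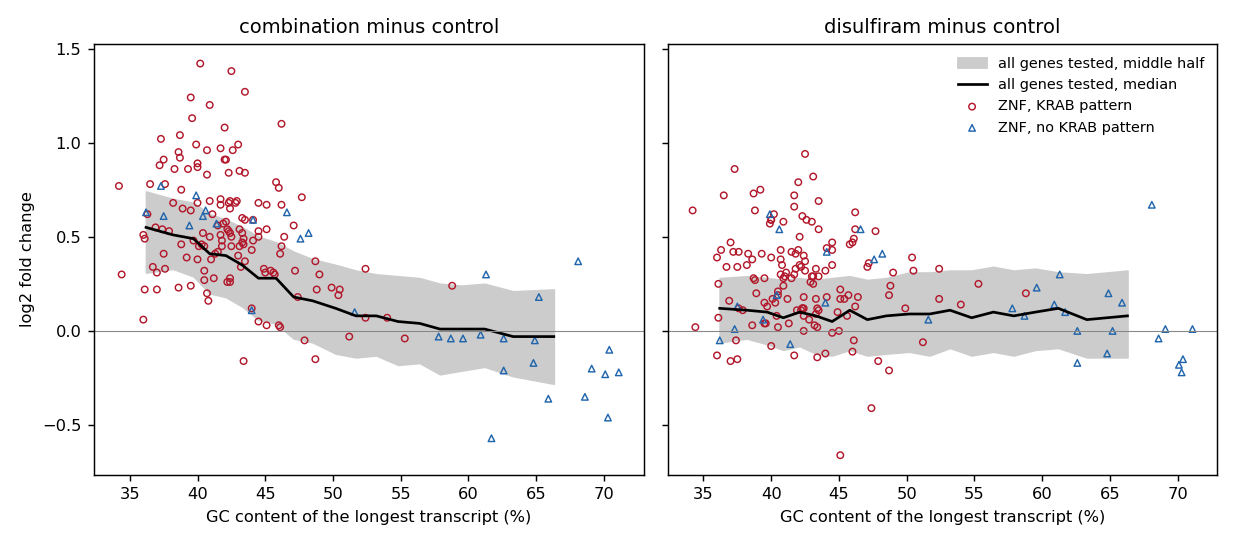
Log2 fold change against the GC content of the longest transcript, for the combination minus control (left) and disulfiram minus control (right). Circles are ZNF genes with a KRAB pattern, triangles those without, the line is the median of all genes tested in 20 bins of GC content and the band their middle 50%. For the combination the line runs from 0.55 in the bin of lowest GC content to -0.03 in the highest, while for disulfiram it stays between 0.05 and 0.12.

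Across all genes tested with a known transcript, the log2 fold change of the combination fell with GC content (Spearman's rho = -0.44 over 15042 genes, which share the same 12 libraries), and across the 180 it did so as well (rho = -0.52). For disulfiram against control the values were 0.00 and -0.21, and for thalidomide against control 0.20 and -0.05. The ZNF genes were therefore set beside other protein-coding genes of similar GC content and with a mean TPM between 0.931 and 9.19, the 10th to 90th percentile of the 180. All genes tested were cut into 4 classes of equal size at 42.7%, 49.3% and 57.1% GC. In class 1, of lowest GC content, 44.9% of 78 ZNF genes rose with the combination, against 28.1% of 1768 other genes, with medians of 0.63 and 0.50. In class 2, 42% of 50 ZNF genes rose, against 18.8% of 1232 other genes, with medians of 0.47 and 0.28. In class 3, 0 of 6 rose, against 13.7% of 924 other genes, and in class 4, 0 of 10, against 11.6% of 982. Other genes of class 1 thus also rose more often than all genes tested (18.4%), while those of class 2 rose about as often. In classes 1 and 2 the ZNF genes had the higher share and median. No test was run on these shares.

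**Figure D4:**
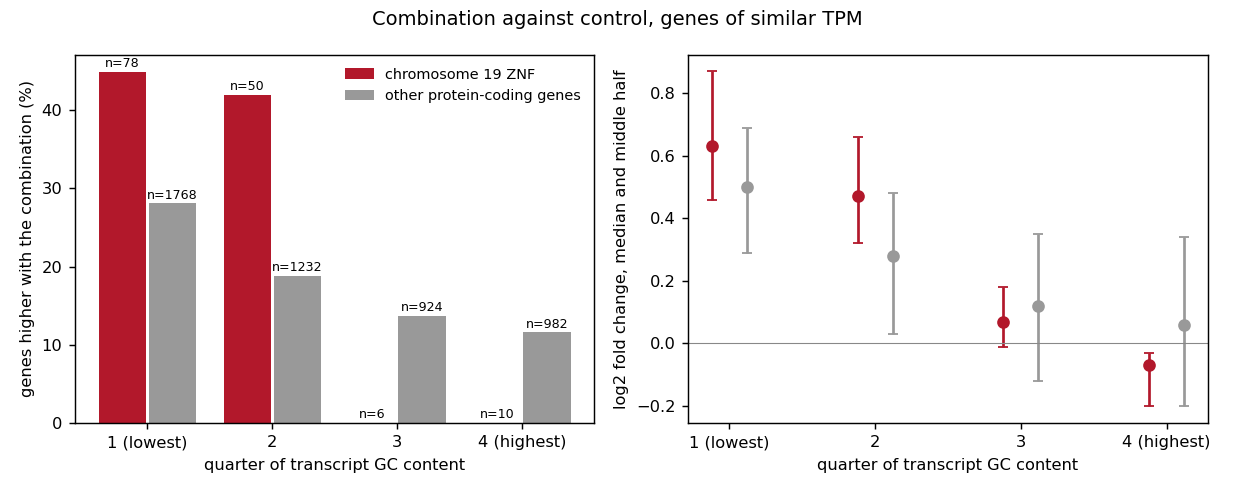
Combination against control in 4 classes of transcript GC content, lowest at the left, for chromosome 19 ZNF genes and for other protein-coding genes of similar TPM. Bars give the share of genes that rose (left), points the median log2 fold change and lines the middle 50% (right). The ZNF share is 44.9% in class 1 and 42% in class 2, against 28.1% and 18.8% of other genes, and 0 in classes 3 and 4.

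When each library's trend with GC content was removed before the fit, 46 of the 180 rose and none fell, or 25.6%, where 22.1% of all genes tested rose. The median log2 fold change was then 0.30, against 0.18 for all genes tested. In class 1, 26.9% of the 78 ZNF genes rose, against 17% of other genes of similar TPM, with medians of 0.35 and 0.20. In class 2, 38% of the 50 rose, against 17.9%, with medians of 0.35 and 0.20. The order was the opposite in the other classes. In class 3, 0 of 6 rose, against 23.1%, with medians of 0.18 and 0.22. In class 4, 1 of 10 rose, against 25.9%, with medians of 0.13 and 0.24. Of the 65 genes called without the correction, 42 were also called with it. The GC trend that the 3 combination libraries have in common and the treatment cannot be told apart.

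ZNF genes of other chromosomes and other genes of chromosome 19 were set beside the 180. Of 186 protein-coding ZNF-number genes elsewhere, 35 rose and 1 fell with the combination (18.8% rose), with a median of 0.26. In GC class 1, without a limit on mean TPM, 35% of 60 of them rose, with a median of 0.54. On the same terms 40.4% of 94 of the chromosome 19 genes rose, with a median of 0.57. Of 785 other protein-coding genes on chromosome 19, 10.1% rose and 11.7% fell, with a median of 0.02. After GC correction 29.3% of these 785 rose and 6.5% fell, with a median of 0.18. The corrected share of the 180 that rose was 25.6%, with a median of 0.3. The order of these shares was thus opposite to that without correction, while the 180 kept the higher median. Of the 186 ZNF genes elsewhere, 18.3% rose after correction, with a median of 0.21. The differences between these sets were not tested.

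Along the chromosome the 240 genes fall into 8 clusters separated by more than 1 Mb, plus 14 scattered genes, of which 9 are among the 180. The median log2 fold change with the combination was above 0 in every cluster, as it was for all genes tested (0.20, with 18.4% rising). The shares that rose in cluster 4 (20%), in cluster 8 (22.9%) and among the scattered genes (22.2%) lay closest to that 18.4%. In cluster 2 (chr19:11483427-12640098) 9 of 15 genes rose, with a median of 0.58, among them ZNF69, ZNF136 and ZNF791. In cluster 6 (chr19:43525497-45076588) 11 of 21 rose, with a median of 0.59, among them ZNF224 and its neighbours ZNF222, ZNF223, ZNF225, ZNF226 and ZNF227. In cluster 7 (chr19:51571298-53580269), where all 28 genes have a KRAB pattern, 13 rose, with a median of 0.65. In cluster 1 the count was 4 of 14 (median 0.46), in cluster 4 it was 1 of 5 (0.53), in cluster 5 it was 5 of 17 (0.57), and among scattered genes 2 of 9 (0.45). In cluster 3, the primate-expanded array near the centromere with ZNF91 and ZNF43, 6 of 23 rose (median 0.46). These 23 genes have a median GC content of 37.5%, and after GC correction none of them passed. Their corrected median was 0.19, against 0.18 for all genes tested. Cluster 8 (chr19:55476332-58481230) held both directions: 11 of 48 rose and 3 fell, with a median of 0.31, or 0.23 after GC correction. The 3 that fell lie near the start of cluster 8, between chr19:55620742 and chr19:56160893, as do ZNF784 and ZNF581. All of these are GC-rich and have no KRAB pattern.

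**Figure D5:**
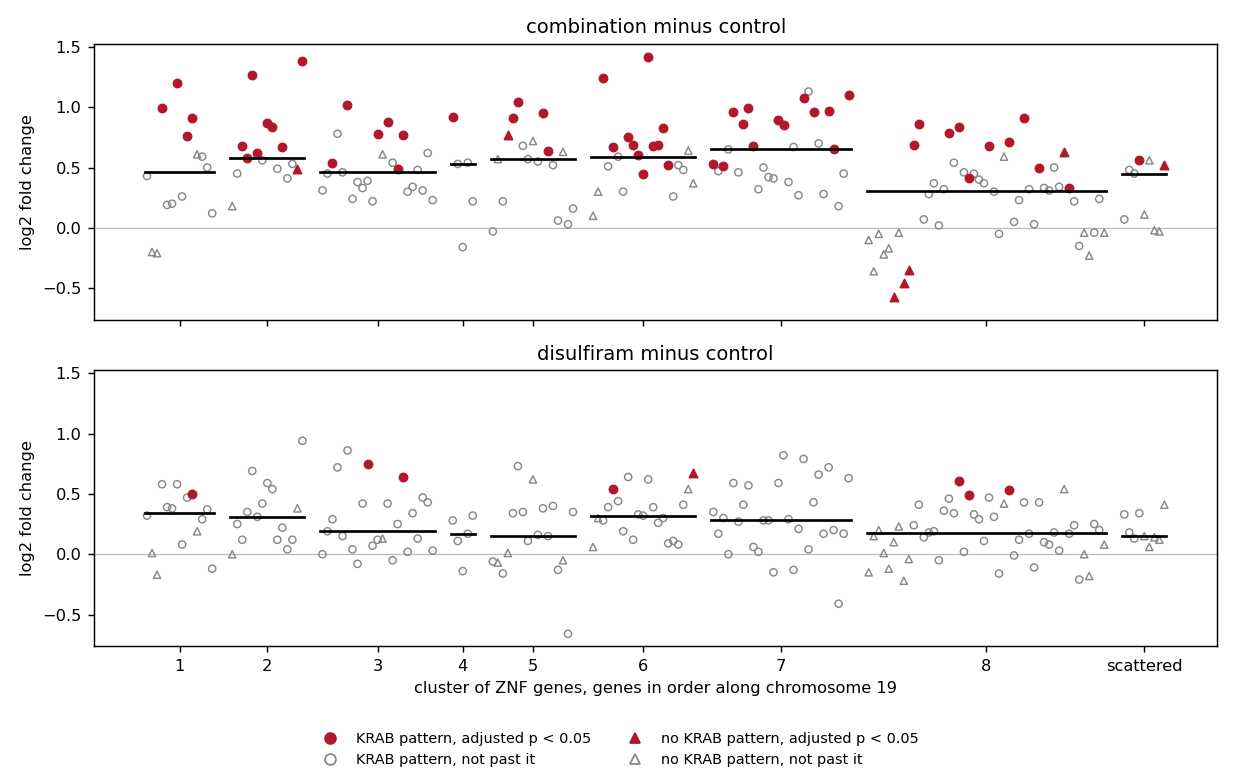
Log2 fold change of each chromosome 19 ZNF gene in its order along the chromosome, by cluster, for the combination (top) and disulfiram (bottom), each minus control. Filled symbols passed the threshold, circles have a KRAB pattern and triangles do not, and black lines are cluster medians, which run from 0.31 to 0.65 for the combination and from 0.15 to 0.34 for disulfiram. The 3 filled symbols below 0 are ZNF580, ZNF787 and ZNF444 in cluster 8.

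Disulfiram alone raised few of these genes past the threshold. Of the 180, 8 rose and none fell, or 4.44%, where 8.73% of all genes tested rose and 4.52% fell, so the share was below the background. After GC correction 25 rose, or 13.9%, where 13.1% of all genes tested rose, so the shares were then close. The median log2 fold change was 0.24, against 0.09 for all genes tested, and 48 genes had every disulfiram library above every control library and 3 had every one below, where 21.5% and 11.4% of all genes tested did. The second disulfiram library was unlike the others: 111 of the 180 were above their control mean there, against 155 in the first and 148 in the third. In the control libraries themselves 78, 114 and 78 were. Without the second disulfiram library 24 genes were called, without the first 1, and without the third disulfiram library 2. Without the first control library 2 were called, without the third control library 5, and without the third combination library, which changes only the shared spread, 4. None of the 8 was called whichever library was left out. At similar TPM, 5.13% of 78 ZNF genes rose in GC class 1, against 2.6% of other genes, and 6% of 50 rose in class 2, against 5.93%. After GC correction these shares were 15.4% against 7.24% in class 1 and 20% against 10.2% in class 2. In class 3, 0 of 6 rose, against 12.3% of other genes, and 1 of 6 after correction, against 15.7%. In class 4, 1 of 10 rose, against 13.2%, and 1 of 10 after correction, against 15.7%.

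ZNF45 was at 7.58, 5.62 and 7.80 TPM with the combination, 6.44, 5.89 and 6.56 TPM with disulfiram, 4.04, 3.99 and 4.2 TPM with thalidomide and 3.91, 4.06 and 4.04 TPM in control. Every combination and disulfiram library was above every thalidomide and control library. Its log2 fold change was 0.54 ± 0.13 with disulfiram (limma adjusted p = 0.0162) and 0.67 ± 0.13 with the combination (limma adjusted p = 0.00514). The disulfiram value had an adjusted p of 0.0527 to 0.0606 without the first control library or without the first or the third disulfiram library. ZNF66 had the largest log2 change of the 8 genes that passed, with 7.62, 4.88 and 4.88 TPM with disulfiram, against 2.59, 3.46 and 2.88 TPM in control, a log2 change of 0.75 ± 0.17 (limma adjusted p = 0.0137, or 0.0558 without the first control library). With the combination ZNF66 had 3.85, 4.43 and 4.33 TPM, below all 3 disulfiram libraries. ZNF296, GC-rich and without a KRAB pattern, had 10.96, 10.30 and 8.64 TPM with disulfiram and 4.26, 6.77 and 6.85 TPM in control, a change of 0.67 ± 0.17 (limma adjusted p = 0.0246). Its adjusted p was up to 0.0863 without the first control or the first or second disulfiram library. ZNF548, ZNF211 and ZNF426 rose by 0.61, 0.53 and 0.50 on the log2 scale and lost the call without any of several single libraries, at adjusted p of up to 0.162. ZNF66 and ZNF548 share 11% and 10.2% of their 50-base windows with other genes, and ZNF66 overlaps a gene on the other strand. Of the 8 genes, 6 also rose with the combination, and the 2 comparisons share their control libraries.

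Thalidomide alone moved none of the 180 past the threshold in limma, and 0 of all genes tested passed, with 8 of the 180 (4.44%) at an unadjusted p below 0.05, where 5.69% of all genes tested were. The median log2 fold change was 0.00, against -0.03 for all genes tested, with 89 of 180 above 0. In 9 genes every thalidomide library was above every control library and in 8 every one was below, where 3.91% and 6.32% of all genes tested did so. The smallest p-values were those of ZNF776 and ZNF611. ZNF776 had 5.69, 5.45 and 7.07 TPM with thalidomide and 4.47, 3.25 and 2.67 TPM in control, a log2 difference of 0.68 ± 0.16 (limma adjusted p = 0.504). ZNF611 had 1.83, 1.24 and 1.51 TPM with thalidomide and 2.50, 4.21 and 4.15 TPM in control, a difference of -0.85 ± 0.21 (limma adjusted p = 0.504). Neither pair of groups overlapped, but with this many genes tested the values did not pass. ZNF776 shares 10.4% of its 50-base windows with other genes, and ZNF611 shares 13.6%.

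Setting the combination against each single drug gave unlike counts. Against disulfiram none of the 180 passed in limma, where 0.00651% of all genes tested did, and 31 (17.2%) were at an unadjusted p below 0.05, where 17.1% of all genes tested were. The median log2 difference was 0.21, against 0.06 for all genes tested, and after GC correction it was 0.06 for the members and 0.07 for all. In 29 genes every combination library was above every disulfiram library and in 6 every one was below, where 9.69% and 6.54% of all genes tested did so. ZNF222 and ZNF580 had the smallest p-values. ZNF222 was at 4.92, 5.04 and 5.77 TPM with the combination and 3.27, 3.09 and 3.30 TPM with disulfiram, without overlap (0.56 ± 0.14, limma adjusted p = 0.256). ZNF222 shares 12.5% of its 50-base windows with other genes and overlaps another annotated gene. ZNF580 was at 3.47, 3.95 and 3.35 TPM with the combination and 5.36, 6.08 and 7.61 TPM with disulfiram (-0.67 ± 0.17, limma adjusted p = 0.256).

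Against thalidomide 67 genes rose and 5 fell with the combination, or 37.2% and 2.78%, where 25% of all genes tested rose and 7.24% fell. The median was 0.50, against 0.22 for all genes tested, and 26 of the 72 were called whichever library was left out. After GC correction 40 rose and 1 fell, and the 22.2% that rose lay below the 27.1% of all genes tested, the opposite order to that without correction. The corrected median was 0.31, against 0.20 for all genes tested. Without the first or the third combination library or the first thalidomide library 30 to 35 were called. ZNF222 had 1.47, 1.55 and 2.00 TPM with thalidomide, the lowest of the 4 groups, so the combination was higher by 1.23 ± 0.14 on the log2 scale (limma adjusted p = 0.00022). Against its control levels of 2.44, 2.93 and 3.30 TPM, the combination was higher by 0.69 ± 0.14 (limma adjusted p = 0.00626), and thalidomide differed by -0.54 ± 0.14 (limma adjusted p = 0.504). ZNF420 (1.27) and ZNF528 (1.23) rose by similar amounts on the log2 scale. ZNF420 was at 0.22, 0.53 and 0.39 TPM with thalidomide and 0.26, 1.14 and 0.90 TPM in control. It is thus among the 43 genes that would not pass the filter on these libraries by themselves. It also overlaps 6 annotated genes, 5 of them on the other strand, so its reads could be divided differently. ZNF468 (1.35) shares 99.2% of its 50-base windows with another gene, and its value is uncertain. The 5 genes that fell were ZNF580, ZNF787, ZNF784, ZNF414 and ZNF358, all GC-rich and without a KRAB pattern, and none of these 5 calls was kept whichever library was left out.

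Whether the drugs together did more than their separate effects added was tested as the interaction on the log2 scale, the combination minus each single drug plus control. None of the 180 and none of all genes tested (0%) passed in limma, and 15 of the 180 (8.33%) were at an unadjusted p below 0.05, where 10.3% of all genes tested were. The median was 0.26, against 0.09 for all genes tested, and after GC correction it was 0.09 for the members and 0.10 for all. ZNF607 and ZNF222 had the smallest p-values, with interactions of 1.38 ± 0.37 and 1.10 ± 0.19 (limma adjusted p = 0.466 for both). ZNF607 had 1.16, 1.06 and 2.00 TPM with the combination, 0.63, 0.61 and 0.22 TPM with disulfiram, 0.00, 0.94 and 0.53 TPM with thalidomide and 1.03, 1.87 and 1.15 TPM in control, so that its single-drug libraries were below both other groups.

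Several members have roles that are known apart from these data. ZNF274, which recruits SETDB1 to the 3' ends of ZNF genes, had 24.70, 19.93 and 22.11 TPM with the combination, 20.04, 19.17 and 20.28 TPM with disulfiram, 16.94, 16.26 and 17.31 TPM with thalidomide and 17.51, 16.94 and 18.03 TPM in control. All 6 libraries with disulfiram were above all 6 without it, and the log2 fold change of the combination was 0.33 ± 0.09 (limma adjusted p = 0.0267). Its adjusted p was 0.476 with median-of-ratios scaling, where the change was 0.10, and 0.0581 to 0.114 without the first or the third combination library or any 1 control library. ZNF350, which binds BRCA1 and represses GADD45A, was at 2.96, 2.25 and 3.33 TPM with the combination and 1.23, 1.23 and 0.52 TPM in control (0.96 ± 0.23, limma adjusted p = 0.0144), with an adjusted p of up to 0.0632 without the first or the third combination or the third control library. ZNF304, described as a silencer of the INK4-ARF locus in colorectal cancer cells, was at 6.19, 4.55 and 5.63 TPM with the combination, 4.75, 3.48 and 4.23 TPM with disulfiram, 2.03, 2.51 and 3.06 TPM with thalidomide and 2.74, 2.86 and 2.58 TPM in control (0.79 ± 0.16 for the combination, limma adjusted p = 0.00613).

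ZNF91 and ZNF808, which bind transposable elements, did not pass. ZNF91, a repressor of SVA elements, was at 5.03, 3.75 and 5.59 TPM with the combination and 2.89, 4 and 4.1 TPM in control, with overlap (0.31 ± 0.27, limma adjusted p = 0.396), and its change was -0.04 after GC correction. ZNF808, whose loss in humans causes pancreatic agenesis, was at 1.73, 0.85 and 1.25 TPM with the combination and 0.97, 0.60 and 0.63 TPM in control (0.38 ± 0.23, limma adjusted p = 0.214), and it shares 28.6% of its windows with other genes. ZNF43, a neighbour of ZNF91 in cluster 3, was at 4.91, 3.55 and 4.32 TPM with the combination and 2.77, 3.52 and 3.11 TPM in control, without overlap (0.34 ± 0.16, limma adjusted p = 0.132), and its change was -0.02 after GC correction. ZNF460 was at 2.47, 1.8 and 1.95 TPM with the combination and 1.86, 2.07 and 2.11 TPM in control, and the groups overlapped (0.02 ± 0.18, limma adjusted p = 0.934). ZNF146, made of fingers alone, was at 30.69, 12.60 and 23.04 TPM with the combination and 13.26, 16.87 and 11.49 TPM in control (0.57 ± 0.33, limma adjusted p = 0.205). Its second combination library fell inside the control range, and without the second combination and second disulfiram libraries the adjusted p was 0.0113. ZNF653, a protein that thalidomide analogs bring to cereblon, was at 12.64, 9.23 and 12.17 TPM with thalidomide and 12.50, 11.24 and 13.45 TPM in control (-0.13 ± 0.13, limma adjusted p = 0.979).

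Genes for the repression machinery that KRAB proteins recruit were examined as a list. Of 37 tested, 3 rose (8.11%) and 2 fell (5.41%) with the combination, both below the shares of all genes tested given above, and the median log2 fold change was -0.01, against 0.20. TRIM28, the corepressor that KRAB binds, was at 414.63, 515.71 and 457.44 TPM with the combination and 527.37, 525.42 and 533.92 TPM in control (-0.20 ± 0.09, limma adjusted p = 0.107). ATF7IP2, a relative of the SETDB1 partner ATF7IP, was at 24.19, 21.80 and 20.74 TPM with the combination, 16.79, 11.62 and 17.26 TPM with disulfiram, and 9.39, 11.09 and 8.99 TPM in control. It rose by 1.10 ± 0.16 on the log2 scale with the combination (limma adjusted p = 0.00156) and by 0.57 ± 0.16 with disulfiram (limma adjusted p = 0.0387). With thalidomide ATF7IP2 was at 12.41, 13.47 and 17.48 TPM, also above every control library, but did not pass (0.50 ± 0.16, limma adjusted p = 0.739). PPHLN1, a subunit of the silencing complex HUSH, rose by 0.48 and SMARCAD1, a chromatin remodeler, by 0.77, while EHMT1, a histone H3K9 methyltransferase, fell by 0.36 and MTA1, of the NuRD complex, fell by 0.29. Of 8 tested zinc finger genes whose proteins thalidomide or its analogs bring to cereblon, 1 rose with the combination, ZNF692. That is 12.5%, where 18.4% of all genes tested rose. ZNF692 was at 34.02, 30.99 and 35.86 TPM with the combination, against 21.43, 24.10 and 16.94 TPM in control (0.68 ± 0.14, limma adjusted p = 0.00695). With thalidomide it was at 37.08, 48.03 and 36.22 TPM, above every control library (0.93 ± 0.14, limma adjusted p = 0.179), and none of the 8 passed. Of 16 tested chromosome 19 zinc finger genes with other symbols, 5 rose with the combination (ZFP30, ZSCAN18, ZFP36, ZNF585A and ZNF585B) and 2 with disulfiram (ZFP36 and ZNF585A). These are 31.2% and 12.5%, where 18.4% and 8.73% of all genes tested rose.

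The promoters of the 2 kinds of gene differed less in base composition than their transcripts. Among 161 members matched by symbol to RefSeq promoter windows (GRCh38.p14, 250 bases before to 50 after the start, the first start listed), the median GC content was 61% and the median number of CpG 21, against 58.3% and 14 over 27305 RefSeq promoters. The windows of a gene that rose and of one that fell are shown with each CG in capitals.
ZNF224: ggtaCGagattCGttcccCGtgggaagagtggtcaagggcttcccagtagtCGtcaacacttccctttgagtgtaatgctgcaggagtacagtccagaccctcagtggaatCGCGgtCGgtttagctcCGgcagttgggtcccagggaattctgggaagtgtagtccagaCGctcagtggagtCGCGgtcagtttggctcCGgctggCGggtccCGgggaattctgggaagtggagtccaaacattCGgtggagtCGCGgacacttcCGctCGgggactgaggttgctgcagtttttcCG
ZNF787: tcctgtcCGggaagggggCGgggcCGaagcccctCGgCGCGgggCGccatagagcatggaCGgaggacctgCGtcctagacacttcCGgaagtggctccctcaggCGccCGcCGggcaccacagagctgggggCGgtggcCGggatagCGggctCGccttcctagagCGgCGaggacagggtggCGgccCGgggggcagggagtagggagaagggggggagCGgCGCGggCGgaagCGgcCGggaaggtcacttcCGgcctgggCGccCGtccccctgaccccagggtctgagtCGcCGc

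The ZNF224 window, chr19:44094111-44094410 on the plus strand, has 58.3% GC and 20 CpG, and the ZNF787 window, chr19:56121246-56121545 on the minus strand, has 75% GC and 32 CpG. The KRAB genes had a median of 59% GC and 20 CpG and the others 64.3% and 24. Because disulfiram's metabolite carries copper, the windows were searched on either strand for the core of the metal response element, TGCACNC or TGCGCNC. It was present in 62 of the 161 windows (38.5%), against 29.3% of all RefSeq promoters. The members' windows are also richer in GC and CpG than all RefSeq promoters, and TGCGCNC itself holds a CpG. The part of base composition in the share was not tested. A match is a run of letters and does not show that a factor binds there.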

How the data were processed

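RNA sequencing of 12 Huh7 libraries, 3 each in 4 groups, was analysed from 1 table of TPM per gene deposited by the authors. Per the submitters' processing notes, HISAT2 2.0 and StringTie 1.3.0 were used with hg38. The annotation and filters are not named there. TPM keeps no read counts, so library depth and counting error are unknown. The deposited values were taken as log2(TPM + 1), which understates changes of low genes. Genes with at least 1 TPM in at least 3 libraries (15352) were fitted with limma 3.58.1 (R 4.3.3) with its mean-variance trend, all 12 libraries in 1 fit, two-sided tests and Benjamini-Hochberg adjustment over all genes tested. The fit was tested on simulated data.

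Symbols, coordinates, transcripts and coding sequences came from GENCODE 29. A KRAB pattern means 7 of 8 conserved positions within the first 200 residues of the translated coding sequence, used in place of RefSeq proteins. Shared sequence was counted in windows of 50 bases. GC correction used the deviation of each gene's log2(TPM + 1) from its mean over all 12 libraries. Each library's lowess curve (span 0.3) of these deviations on transcript GC content was subtracted, and the library's median deviation was added back.

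The members and lists were chosen with earlier results of these data known. Named genes were, per comparison, up to 6 largest rises and falls that passed, reached a mean of 2 TPM in a compared group and did not overlap, or else the 2 smallest p; the 6 highest in level; the highest in each cluster; 2 genes on either side of the threshold; and a list of genes with known roles. ZNF136, ZNF223, ZNF225, ZNF226, ZNF227, ZNF260, ZNF329, ZNF473 and ZNF490 were named after their values were seen.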

Additional observations from a re-analysis of the deposited data

How the results depend on the processing

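The count of genes past the threshold was the value most affected by processing. No named gene that passed the threshold in either setting changed direction. Among named genes that did not pass, the combination values of ZNF43 (0.34, then -0.02) and ZNF91 (0.31, then -0.04) turned negative with GC correction, and a sign change was also seen in the median of GC-rich genes without a KRAB pattern (-0.08, or 0.13 with correction). The median of all genes without the pattern (0.10) was -0.12 with median-of-ratios scaling. For the combination against control (65 called), the count was 16 with a mean of at least 5 TPM required (45 genes tested), 42 with median-of-ratios scaling, 36 without a filter, and 38 with the replicate block and GC correction together. It was 92 with replicate 2 of disulfiram and of the combination left out. For the combination against thalidomide (72), the count was 41 with GC correction, 20 with a mean of at least 5 TPM, 41 with median-of-ratios scaling, and 39 with the replicate block and GC correction. It was 101 with the same 2 libraries left out. For disulfiram against control (8), it was 25 with GC correction, 5 with a mean of at least 5 TPM, 2 with median-of-ratios scaling, 3 without a filter, 2 with the compared groups alone, 5 with the replicate block, 22 with the block and GC correction, and 28 with replicate 2 of disulfiram and of the combination left out. With each library left out in turn the counts ran from 20 to 80, from 30 to 95 and from 1 to 24. The other 3 comparisons gave 0 throughout. The stricter filter tests fewer genes; other causes were not tested.

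The replicate numbers were not taken to pair the samples, since the labels state no shared source and not every correlation of same-numbered deviations passed 0.1 (range -0.15 to 0.37). Between the combination and disulfiram they were 0.21, 0.37 and 0.03, all above 0, and the deviations with GC content had the same sign by number in these 2 groups. Of all libraries, 6 of 12 correlated best with their own number. The replicate block gave 59 calls for the combination against control and 67 against thalidomide. Unknown depth limits all values, those below 2 TPM most.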
